A study of Mus musculus with 8 samples.

Results

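The genes Krt1, Sprr1b, Serpinb3a and Dsc1 are made in the upper layers of the epidermis or in keratinocytes under stress. Pkp3 is made in all living epidermal layers. These 5 genes were followed in whole skin of near naked hairless mutant mice, set against wild type mice, both aged 7 days. Rows of the deposited table were taken by accession where the RefSeq annotation named 1 of these symbols. That gave 5 genes, each with 1 probe, of 6587 named genes, and all 5 passed the filter on missing values, as did 3779 genes in all. The genes were chosen with earlier results of the same comparison known, so their ratios are described here and not tested.

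Near naked hairless mice carry a mutant allele at the hairless locus and grow few hairs. Strain, sex and allele dosage of the mice are not stated in the labels. Total RNA of mutant and wild type skin was hybridized together on 8 arrays of 2 colours. Cy5 marked the mutant RNA on arrays 2, 4, 6 and 7, and Cy3 marked it on arrays 1, 3, 5 and 8. The submitters describe 5 biological replicates, all of 1 litter, without saying which array held which animal, so some arrays must share an animal. Errors and p-values over arrays are therefore smaller than animals would give. Each value is a log2 ratio of mutant over wild type. Channel 1 is labelled as sample and channel 2 as control, which makes this direction likely without settling it. Were it the other way round, all signs below would be turned. The table holds no signal levels, so the tissue could not be checked against its markers, and the number of arrays sets the precision. In whole skin, a lower ratio from fewer cells of a type cannot be told apart from one with less RNA per cell.

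Keratinocytes of the basal layer divide, then move up and switch to the keratin pair KRT1 and KRT10, which fills the suprabasal cells with strong filaments. Desmosomes rivet these cells together: their cadherins, such as desmocollin 1, bridge neighbouring cells, and plakophilins tie the cadherins to the filaments inside. In the outermost living layer, small proline-rich proteins, involucrin and loricrin are crosslinked by transglutaminases into the cornified envelope. In wounded, irritated or inflamed epidermis, keratinocytes take up an activated state in which some small proline-rich proteins, keratins of repair and serpins of the SERPINB3 kind are made in larger amounts.

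Short stretches of DNA upstream of these genes were read from the RefSeq promoter table for the build GRCm38.p6. They are shown for Sprr1b, for the genes Sprr3, Sprr1a and Ivl that follow it in the epidermal differentiation complex and had fitted ratios on the same side of 0, and for Serpinb3a, which lay on the other side. Each stretch is the 250 bases before the gene's start, on the minus strand, 5′ to 3′. Capitals mark the letters TGANTCA, where N is any base, a loose form of the pattern to which AP-1 factors bind. They also mark TATAAA, the usual letters of the box near which transcription starts.
Sprr1b: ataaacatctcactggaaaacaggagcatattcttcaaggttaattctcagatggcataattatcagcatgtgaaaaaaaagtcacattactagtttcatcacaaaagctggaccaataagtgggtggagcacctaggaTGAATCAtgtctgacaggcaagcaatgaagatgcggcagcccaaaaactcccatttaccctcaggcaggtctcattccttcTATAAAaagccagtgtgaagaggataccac
Sprr3: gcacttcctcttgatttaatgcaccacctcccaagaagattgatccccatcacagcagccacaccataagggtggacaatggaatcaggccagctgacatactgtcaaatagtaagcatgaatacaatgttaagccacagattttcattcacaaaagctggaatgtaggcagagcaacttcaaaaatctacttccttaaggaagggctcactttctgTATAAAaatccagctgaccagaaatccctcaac
Sprr1a: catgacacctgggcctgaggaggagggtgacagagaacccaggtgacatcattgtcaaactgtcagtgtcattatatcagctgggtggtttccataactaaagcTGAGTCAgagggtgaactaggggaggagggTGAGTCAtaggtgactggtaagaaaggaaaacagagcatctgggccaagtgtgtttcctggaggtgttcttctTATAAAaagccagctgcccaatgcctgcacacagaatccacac
Ivl: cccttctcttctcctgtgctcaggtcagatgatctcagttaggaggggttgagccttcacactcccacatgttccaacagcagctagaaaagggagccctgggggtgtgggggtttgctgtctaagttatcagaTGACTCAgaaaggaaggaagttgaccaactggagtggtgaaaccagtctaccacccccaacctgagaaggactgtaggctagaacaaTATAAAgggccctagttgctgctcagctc
Serpinb3a: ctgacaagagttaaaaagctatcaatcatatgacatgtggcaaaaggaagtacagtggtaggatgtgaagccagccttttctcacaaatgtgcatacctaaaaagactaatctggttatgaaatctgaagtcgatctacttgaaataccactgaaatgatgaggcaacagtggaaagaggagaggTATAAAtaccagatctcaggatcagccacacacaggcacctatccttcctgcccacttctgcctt
These stretches lie at chr3:92438780-92439029 for Sprr1b, chr3:92458721-92458970 for Sprr3, chr3:92485882-92486131 for Sprr1a, chr3:92573736-92573985 for Ivl and chr1:107052304-107052553 for Serpinb3a. TATAAA, searched on the gene's strand, stood 30 bases before the start of Sprr1b and 65 bases before that of Serpinb3a. TGANTCA, which is its own reverse complement and was thus read on both strands, began 111 bases before the start of Sprr1b, 116 before that of Ivl, and 146 and 116 before that of Sprr1a. The matched letters were TGAATCA in Sprr1b, TGACTCA in Ivl and TGAGTCA at both places in Sprr1a, and binding was not tested. The stretches of Sprr3 and Serpinb3a held no TGANTCA. No match of the 2 patterns overlapped another. Of 32851 promoter stretches of this length, 6.75% held TGANTCA and 7.59% held TATAAA. These matches describe the letters alone.

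The 5 genes did not share a direction. Krt1 and Serpinb3a were above 0 on every array that measured them, Sprr1b was below 0 on every such array, and Dsc1 and Pkp3 had values on both sides. That 3 of 5 had all values on the same side of 0 stands beside 6.99% of the 3779 genes tested. Nothing is read from that difference, since the genes were chosen on these ratios. Among the 3779 fitted ratios, Krt1 ranked 23rd from the top and Serpinb3a 209th, while Sprr1b ranked 105th from the bottom.

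**Figure D1:**
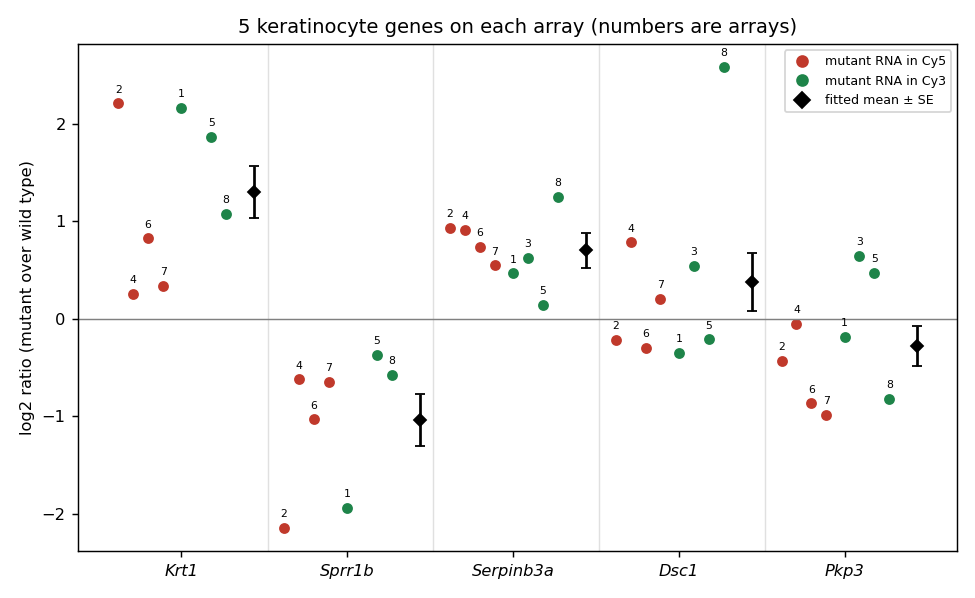
Log2 ratio of mutant over wild type (vertical axis) of Krt1, Sprr1b, Serpinb3a, Dsc1 and Pkp3, with 1 point for each array that had a value, red where the mutant RNA carried Cy5 and green where it carried Cy3, and the number of the array above it. Black diamonds are the fitted means with their standard errors. The points of Krt1 and Serpinb3a lie above 0 and those of Sprr1b below 0, while Dsc1 has its highest point, 2.58, on array 8.

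Krt1 encodes the type II keratin of suprabasal cells. Its log2 ratios were 2.21, 0.26, 0.83 and 0.34 on arrays 2, 4, 6 and 7, with the mutant in Cy5, and 2.16, 1.86 and 1.08 on arrays 1, 5 and 8, with the mutant in Cy3. Array 3 had no value. All 7 values were above 0, but arrays 4 and 7 were far lower than arrays 1, 2 and 5. The fitted mean was 1.30 ± 0.27 (SE, n = 7), or 2.47-fold of wild type. In ranks among the named genes of its own array, Krt1 stood between the 59.8th percentile on array 4 and the 99.8th on array 5, with a median at the 92.5th. Without 1 array in turn the fitted ratio ran between 1.09 and 1.46, and on arrays 4 to 8 alone it was 0.97.

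Dye orientation was examined for each gene, since the difference by dye was not itself used to choose the genes. Krt1 averaged 0.91 ± 0.90 with the mutant in Cy5 (SD, n = 4) and 1.70 ± 0.56 with the mutant in Cy3 (SD, n = 3), and the 2 sets of values overlapped. The difference, Cy5 minus Cy3, was -0.79 with a 95% interval from -1.97 to 0.38, and did not pass (limma, Benjamini-Hochberg over all genes, adjusted p = 0.321). For Sprr1b the difference was -0.15 (interval from -1.31 to 1.01, adjusted p = 0.867 in limma), for Serpinb3a 0.16 (-0.61 to 0.93, 0.774), for Dsc1 -0.52 (-1.82 to 0.78, 0.569) and for Pkp3 -0.61 (-1.52 to 0.29, 0.323). None of the 5 passed, against 1.75% of all genes, and none had an unadjusted p below 0.05, against 30.9% of all genes. A choice on the ratios may favour genes whose values are alike over arrays, so nothing is read from these shares. The intervals leave room for dye differences above 1 on the log2 scale in 4 of the 5 genes.

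Sprr1b encodes a small proline-rich protein of the cornified envelope that is abundant in activated keratinocytes. Its ratios were -2.14, -0.62, -1.03 and -0.65 on arrays 2, 4, 6 and 7 and -1.94, -0.37 and -0.58 on arrays 1, 5 and 8. Every value lay below 0, and those of arrays 1 and 2 stood lowest, with no value on array 3. The fitted mean was -1.04 ± 0.26 (SE, n = 7), or 0.488 times the wild type signal. It ranked between the 1.31st and the 22.5th percentile of the named genes on its arrays. On arrays 4 to 8 alone, which have the most values, the fitted ratio was -0.62.

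The genes next to Sprr1b on the chromosome are of the same family, apart from Ivl, and most were on the array. In order they are Sprr2f, Sprr2h, Sprr2i, Sprr2k, Sprr1b, Sprr3, Sprr1a, Sprr4 and Ivl, and Sprr4 had no named probe. The mutant ratios of Sprr1a were -1.38, -0.44, -0.93 and -1.60 on arrays 2, 4, 6 and 7 and -0.69, -0.07, 0.01 and -0.18 on arrays 1, 3, 5 and 8, so 7 of 8 were below 0. The fitted ratio of Sprr1a was -0.66 ± 0.19 (SE, n = 8) and did not pass (limma, adjusted p = 0.0758). Sprr1a and Sprr1b are close copies, and signal of one on the probe of the other was not tested, because probe sequences were not analysed here.

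Sprr3 had a fitted ratio of -1.10 ± 0.38 (SE, n = 7, limma, adjusted p = 0.143), with 6 of 7 values below 0 and -4.03 on array 2. Ivl, which encodes involucrin, the early scaffold of the envelope, had -1.80, -2.55 and -1.65 on arrays 2, 4 and 6 and 0.51, 0.40 and -1.28 on arrays 3, 5 and 8. Its fitted ratio was -1.06 ± 0.28 (SE, n = 6) and its difference by orientation -1.87, and neither passed (limma, adjusted p = 0.0733 and 0.0767). The Sprr2 genes lay closer to 0, with fitted ratios of 0.44 for Sprr2d, 0.17 for Sprr2f and -0.17 for Sprr2h, none past the test. Sprr2a1, Sprr2b, Sprr2e, Sprr2i and Sprr2k had too few values to be fitted and had means between -0.41 and 0.02.

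**Figure D2:**
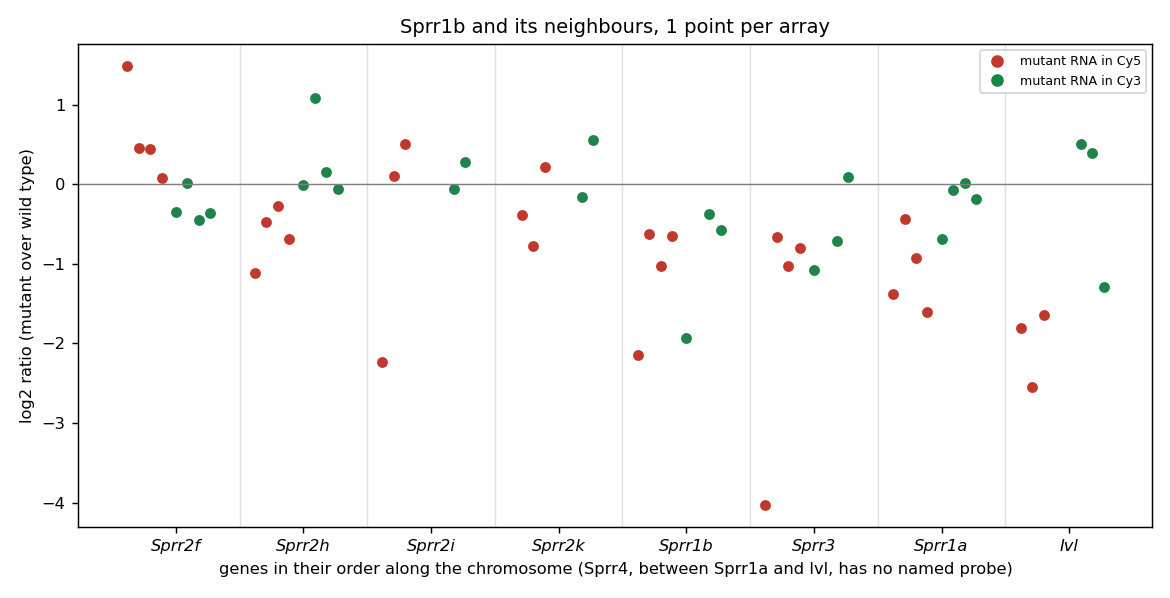
Log2 ratio of mutant over wild type (vertical axis) of Sprr1b and the neighbouring genes with a named probe, in their order along the chromosome, with 1 point for each array, red where the mutant RNA carried Cy5 and green where it carried Cy3. All 7 points of Sprr1b lie below 0, Sprr3 and Sprr1a have 1 point each above it, and the points of the Sprr2 genes lie on both sides.

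Serpinb3a encodes an inhibitor of proteases, related to the human squamous cell carcinoma antigens. Its ratios were 0.94, 0.92, 0.74 and 0.55 with the mutant in Cy5, on arrays 2, 4, 6 and 7, and 0.47, 0.62, 0.14 and 1.25 with the mutant in Cy3, on arrays 1, 3, 5 and 8. It was above 0 on 8 of 8 arrays, with the smallest SD of the 5 genes, 0.34. The fitted mean was 0.70 ± 0.18 (SE, n = 8), or 1.63-fold, and without 1 array in turn it ran between 0.60 and 0.78. Its percentiles were between the 59.4th and the 91st. The near copies Serpinb3b, Serpinb3c and Serpinb3d, its neighbours on the chromosome, had no named probe, so whether the probe also reads them was not tested.

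Other serpins of clade B, most of them inhibitors inside cells, were mixed. Of the 4 others tested none passed in limma, against 3.47% of all genes, and none had an unadjusted p below 0.05, against 19.5% of all genes. Their fitted ratios were 0.14 for Serpinb9, 0.02 for Serpinb2, 0.00 for Serpinb1a and -0.25 for Serpinb11. Serpinb5, which encodes maspin, had too few values for the fit. It was at -3.02, -1.91, -0.73 and -0.04 on arrays 2, 4, 6 and 7 and at -0.02 and -0.50 on arrays 5 and 8, below 0 on all 6. Serpinb6a was likewise below 0 on the 4 arrays that measured it, from -1.64 to -0.75.

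Dsc1 encodes desmocollin 1, the desmosomal cadherin of the upper epidermal layers. Its ratios were -0.22, 0.79, -0.29 and 0.20 with the mutant in Cy5, on arrays 2, 4, 6 and 7, and -0.35, 0.54, -0.21 and 2.58 with the mutant in Cy3, on arrays 1, 3, 5 and 8. There were 4 arrays on each side of 0, and array 8 stood apart at the top. The fitted mean of 0.38 ± 0.30 (SE, n = 8) was 0.06 without array 8, and the median over arrays was 0.00. On arrays 4 to 8 alone it was 0.71, and with quantile normalization 0.21.

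Pkp3 encodes plakophilin 3, a plaque protein found in desmosomes of all living epidermal layers. It stood at -0.43, -0.05, -0.87 and -0.99 on arrays 2, 4, 6 and 7 and at -0.19, 0.65, 0.47 and -0.82 on arrays 1, 3, 5 and 8. All 4 arrays with the mutant in Cy5 were below 0, against 2 of 4 with the mutant in Cy3. Its fitted mean was -0.28 ± 0.21 (SE, n = 8), and -0.14 without array 8.

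Of the other desmosome genes on the array, 3 were tested and none passed in limma, nor at an unadjusted p below 0.05 (list median 0.09). The shares over all genes were 3.47% and 19.5%. The desmosomal cadherin gene Dsc3 had a fitted ratio of 0.12, the plakophilin gene Pkp1 0.09 and the envoplakin gene Evpl -0.21. Dsc2 had 5 of 6 values below 0, with -2.90 on array 2, and was not fitted. The desmoglein genes Dsg1c, Dsg1a, Dsg1b and Dsg4, which follow Dsc1 along the chromosome, had no named probe.

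**Figure D3:**
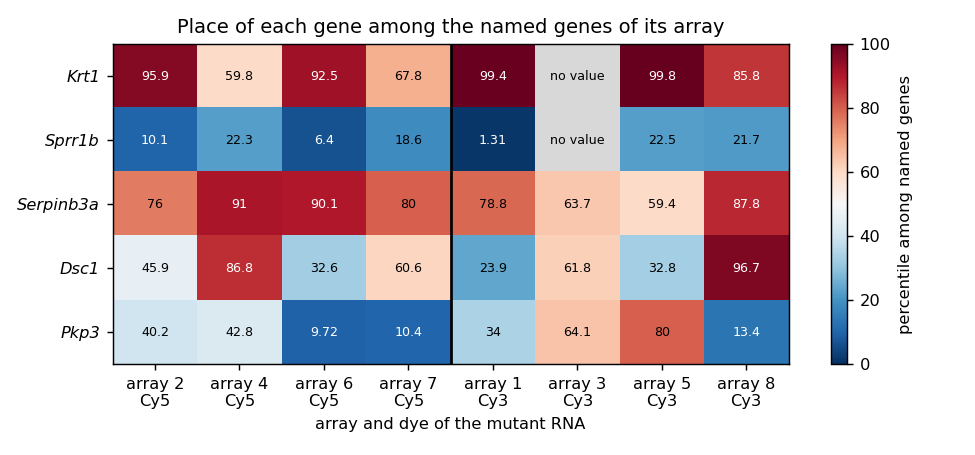
Percentile of each gene among all named genes with a value on the same array, from 0 (lowest log2 ratio of mutant over wild type, blue) to 100 (highest, red), with arrays in columns, those with the mutant in Cy5 left of the line and those with the mutant in Cy3 right of it. Sprr1b stays at or below 22.5 on all 7 of its arrays and Serpinb3a at or above 59.4 on all 8, while Dsc1 runs from 23.9 to 96.7.

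Within an array, Krt1 was the highest of the 5 genes on 4 arrays, Serpinb3a on 2, Dsc1 on 1 and Pkp3 on 1. Sprr1b was the lowest on 5 arrays, Pkp3 on 2 and Dsc1 on 1. The distance between the highest and the lowest of the 5 was 4.35 on array 2 and 4.10 on array 1, with 3.40 on array 8 and 1.53 on array 7. Array 3, where Krt1 and Sprr1b had no value, gave 0.62, 0.54 and 0.65 for Serpinb3a, Dsc1 and Pkp3. Arrays 1, 2 and 3 also had the fewest values of the series, between 41.3% and 59.0% of rows, against 70.1% to 88.3% on the others. The SD over all values was 1.60 on array 2 and 0.73 on array 1, and its part in these distances was not tested.

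The profiles across arrays were set against those of the other named genes by Pearson's r, after each array's median was subtracted. The most alike, up to 3 a gene, are named as a description, since they are the top of 2184 genes compared for Krt1 and Sprr1b and of 2977 for the others, and the arrays share animals and dyes. For Krt1, Prok2 and Slc5a1 were among these (r = 0.95 and 0.94 over 7 arrays). For Sprr1b they were Krtap14, a keratin-associated protein gene of the hair, with r = 0.99, then Oaz1 and Snrpa with 0.95 and 0.92, over 7 arrays. Slc38a10, Gtf2i and Mid2 were most like Serpinb3a (r = 0.94, 0.93 and 0.93 over 8, 8 and 7 arrays), Krtcap2, Supt4a and Spr most like Dsc1 (r = 0.99, 0.98 and 0.98 over 7, 8 and 7 arrays), and Psenen, Padi2 and Nfe2l3 most like Pkp3 (r = 0.99, 0.97 and 0.97 over 8, 7 and 7 arrays). The profile of Dsc1 includes the value of array 8 that lies apart.

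Other genes of the suprabasal layers did not follow Krt1 past the test. Of 6 tested apart from Krt1 and Dsc1 none passed in limma, while 2 had an unadjusted p below 0.05, both lower. Over all genes 3.47% passed in limma, and 19.5% had an unadjusted p below 0.05. The list without Krt1 and Dsc1 had a median of 0.03, against 0.05 for all genes. Tgm1, the transglutaminase that crosslinks the envelope, had a fitted ratio of 0.32, and Ivl the lowest at -1.06. Among other keratins of epidermis and simple epithelia, 7 were tested and none passed in limma, nor at an unadjusted p below 0.05 (list median -0.23 without Krt1). Their ratios ran from -0.46 for Krt19 to 0.35 for Krt80, with Krt6b, a keratin of repair, at -0.32. Krt10, the partner of Krt1, had no named probe, and Krt6a and Krt16 had too few values to be fitted, with Krt6a above 0 on 4 of 5 arrays. Of 10 cornified envelope genes apart from Sprr1b none passed in limma (list median -0.19 without Sprr1b). Among them 1 was higher and 3 were lower at an unadjusted p below 0.05 in limma, against 19.5% of all genes.

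Among genes of activated keratinocytes apart from Sprr1b and Serpinb3a, 12 were tested. Past the threshold 2 fell and none rose, against 3.47% of all genes called. At an unadjusted p below 0.05 in limma 2 were higher and 3 lower, against 19.5% of all genes. Fabp5, the epidermal fatty acid binding protein, fell to a log2 ratio of -1.59 ± 0.33 (SE, n = 7, limma, adjusted p = 0.026), and Gjb2, the gap junction protein connexin 26, to -1.54 ± 0.31 (SE, n = 7, limma, adjusted p = 0.0201). Both were below 0 on 7 of 7 arrays. The call of Fabp5 was lost without array 1, 2, 4, 5 or 6, and that of Gjb2 without array 1, 4, 5 or 6, with adjusted p up to 0.108 and 0.0673 in limma. The highest ratio that did not pass was 0.59, of Il1f6, an interleukin 1 family gene now called Il36a, and the list had a median of -0.06.

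Of 23 regulators of keratinocyte differentiation, 2 fell and none rose past the threshold, against 3.47% of all genes called (list median 0.19). At an unadjusted p below 0.05 in limma 4 were higher and 2 lower, against 19.5% of all genes. Ovol2, a zinc finger repressor of epithelial cells, fell by 1.54 (SE 0.27, below 0 on 6 of 7 arrays, limma, adjusted p = 0.0123), and Ehf, an ETS factor of epithelia, fell by 1.50 (SE 0.20, below 0 on 8 of 8 arrays, limma, adjusted p = 0.00397). Ehf kept its call whichever array was left out, and Ovol2 lost it without array 7 (limma, adjusted p = 0.0591). Ovol2 also lost its call with no dye term (limma, adjusted p = 0.0722), while Ehf kept its own (limma, adjusted p = 0.0103). Jund had 1.36, not past the test, with 9.57 on array 8, and Vdr -0.97. Of 14 proteases, crosslinking enzymes and inhibitors of cornification none passed in limma and 1 was higher at an unadjusted p below 0.05, from Tgm3 at -0.36 to Ctsb at 0.41 (list median 0.05).

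**Figure D4:**
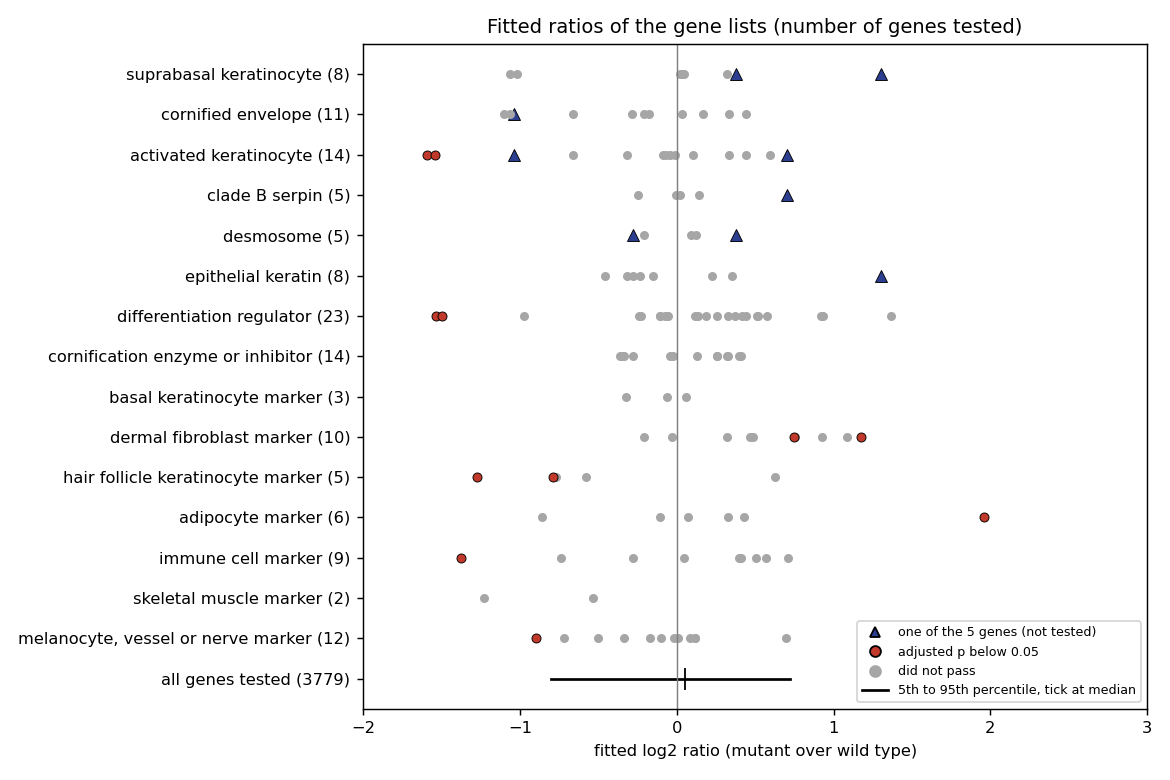
Fitted log2 ratio of mutant over wild type (horizontal axis) of the genes tested in each list, with the number of genes tested in brackets. Blue triangles are Krt1, Sprr1b, Serpinb3a, Dsc1 and Pkp3, red points are other genes past an adjusted p of 0.05, grey points did not pass, and the line at the bottom spans the 5th to the 95th percentile of all 3779 genes. Only 2 red points lie among the activated keratinocyte genes and 2 among the differentiation regulators, all 4 below 0.

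Markers of other cells of whole skin also moved, and their part in the ratios of the 5 genes was not tested. Each count below stands beside 3.47% of all genes called and 19.5% at an unadjusted p below 0.05 in limma. Of 3 basal keratinocyte markers tested none passed in limma, nor at an unadjusted p below 0.05 (median -0.06), with Col17a1 the highest at 0.06. Col17a1 averaged 0.92 with the mutant in Cy5 and -0.80 in Cy3, a difference past the threshold (limma, adjusted p = 0.0479). Of 5 hair follicle keratin genes 2 fell and none rose (median -0.77), Krt31 at -1.27 (SE 0.23, limma, adjusted p = 0.0133) and Krt71 at -0.79 (SE 0.18, 0.0362), and Krt35 was the highest at 0.63. In the hair list 4 were lower and none higher at an unadjusted p below 0.05 in limma. Of 10 dermal fibroblast markers 2 rose and none fell (median 0.62), Vim by 1.17 (SE 0.19, limma, adjusted p = 0.00889) and Fbn1 by 0.75 (SE 0.19, 0.0496), with Pdgfra at 1.09 and Lum at -0.21 not past the test. In the fibroblast list 6 were higher and none lower at an unadjusted p below 0.05 in limma. Of 6 adipocyte markers Cfd rose by 1.96 (SE 0.33, limma, adjusted p = 0.0102), with Lep at 0.43 and Car3 at -0.86 (median 0.20). Unadjusted p in limma was below 0.05 for 1 adipocyte marker higher and 1 lower. Of 9 immune markers C1qb fell by 1.37 (SE 0.25, limma, adjusted p = 0.0141), with Tyrobp at 0.71 and Lyz2 at -0.74. The immune list went mostly the other way, with 6 fitted ratios above 0 and 3 below (median 0.39). In it 2 were higher and 2 lower at an unadjusted p below 0.05 in limma. Neither of 2 muscle markers passed in limma, though both were lower at an unadjusted p below 0.05, with Mb at -0.53 and Tnnt3 at -1.23. Of 12 markers of melanocytes, vessels and nerve Mbp fell by 0.90 (SE 0.20, limma, adjusted p = 0.0342), with Cdh5 at 0.70 and Pecam1 at -0.72. That list had a median of -0.06, with 1 marker higher and 2 lower at an unadjusted p below 0.05 in limma. Vim and Cfd kept their calls whichever array was left out, Krt31 lost it without array 5, C1qb without array 1, 5 or 6, Mbp without array 1, 2, 5, 6, 7 or 8, and Fbn1 and Krt71 when any array but array 3 was left out. With no dye term the calls of Vim, Fbn1, Krt71 and Mbp were lost (limma, adjusted p = 0.0554, 0.204, 0.0689 and 0.123). Over all 15 lists, apart from the 5 genes, 3 of 120 tested genes rose and 8 fell, or 9.17%, against 3.47% of all genes, 0.662% higher and 2.8% lower. At an unadjusted p below 0.05 in limma 17 of the 120 were higher and 19 lower, or 30%, against 19.5% of all genes. The lists were written with earlier results of these data known, so these differences are no independent evidence.

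Whether the table had been turned to a single direction decides these ratios. Over 232 replicate spots of Gapdh, which carry the same gene, arrays of opposite orientation correlated below 0 in all 16 pairs (median r = -0.45) and arrays of the same orientation above 0 in all 12 (median r = 0.55). Over all 21618 probes the median r was -0.02 for opposite orientation, with 10 of 16 pairs below 0, and 0.49 for the same orientation, with 12 of 12 above 0. A table of Cy5 over Cy3 would keep the sign of a dye difference on every array, so the table was read as already turned to mutant over wild type. Read as Cy5 over Cy3, the fitted ratios would be -0.40 for Krt1, -0.08 for Sprr1b, 0.08 for Serpinb3a, -0.26 for Dsc1 and -0.31 for Pkp3, so that Krt1 and Dsc1 would turn and Sprr1b and Serpinb3a would lie near 0. The size of every ratio rests on a logarithm of base 2, which the sources used here do not state.

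**Figure D5:**
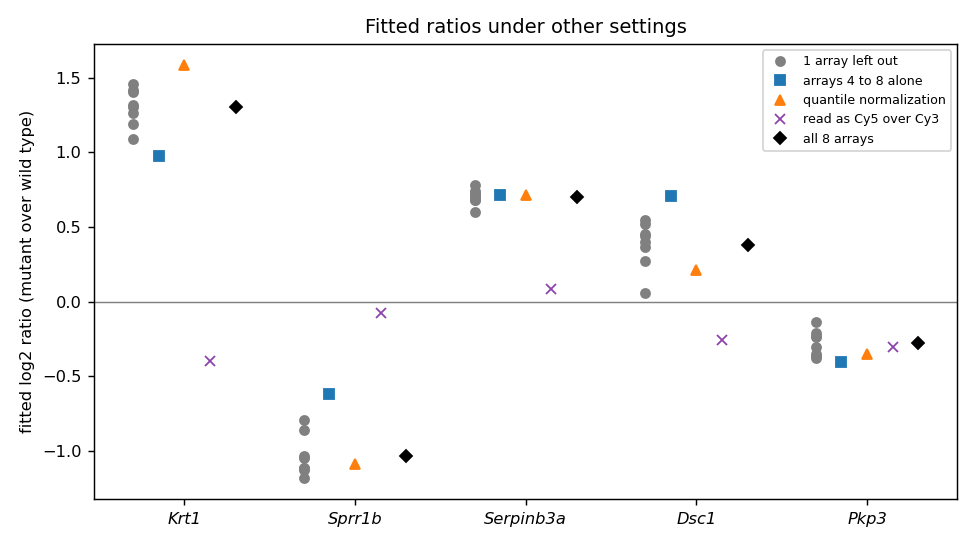
Fitted log2 ratio of mutant over wild type (vertical axis) of the 5 genes from all 8 arrays (black diamonds), with 1 array left out at a time (grey), from arrays 4 to 8 alone (blue squares), after quantile normalization (orange triangles) and with the table read as Cy5 over Cy3 (purple crosses). Serpinb3a stays between 0.60 and 0.78 without 1 array, Dsc1 comes down to 0.06 without array 8, and the crosses of Krt1 and Dsc1 lie below 0.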

How the data were processed

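The authors deposited 1 log2 ratio per spot and array. The base of 2 is taken from the range of the values, in which a base of 10 would imply intensities no scanner records, while a natural logarithm would fit as well. How images were read, ratios normalized and values removed is not stated in the labels. Of 23232 rows, 864 blank, 275 buffer and 96 control oligonucleotide spots were left out. Repeated spots of an accession were averaged, among them 232 of Gapdh. By accession without version, 6749 of 21997 probe rows matched a gene of GRCm38.p6, 77 matched a synonym and 15171 had no match. Probes of a gene were averaged.

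Genes with values on at least 3 of 4 arrays of each orientation were fitted in limma 3.58.1 (R 4.3.3) on dye orientation, with the intercept as the ratio, empirical Bayes and Benjamini-Hochberg adjustment over all 3779 genes at 0.05. The script was tested on simulated data. Alternatives were centring, scaling, quantile normalization, filters of 2 or 4 arrays per orientation, no dye term, the reading as Cy5 over Cy3, each array left out, and arrays 4 to 8 alone.

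The 5 genes and the 15 lists were chosen with earlier results of these data known. Of each list the text names all genes past the threshold, up to 6, with the highest and the lowest of the rest, and relatives of the 5 genes on the array. Serpinb5, Serpinb6a, Dsc2, Krt6a and Krt6b are named as relatives, and Krt10, Krt16, Sprr4 and the Dsg genes for having too few values or none. A gene that this rule gives is left unnamed in 2 places and is not reported here.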

Additional observations from a re-analysis of the deposited data

Results flagged for a closer look

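Dixon's test was applied to the values over arrays of 68 genes, the 5 described here and those that the rule for named genes gives, where at least 4 arrays had a value. In 11 of them 1 array lay apart from the rest, against 3.4 by chance (about 1 in 20), on array 2 for 6 genes and on array 8 for 5. The rule takes the highest and lowest ratios that did not pass, which a single far value can produce. Nothing is therefore read from 11 against 3.4. Among the 5 genes only Dsc1 was concerned, with 2.58 on array 8 and no other value above 0.79. On array 8, Jund (9.57), Krt35 (4.83), Pdgfra (3.98) and Lep (1.46) also stood far above the other arrays. On array 2, Vdr (-4.80), Sprr3 (-4.03), Dsc2 (-2.90), Sprr2i (-2.24) and Pecam1 (-1.93) stood far below the others, and Sprr2f (1.49) far above them.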

How the results depend on the processing

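Read as Cy5 over Cy3, the fitted ratio of Krt1 was -0.40, of Sprr1b -0.0751, of Serpinb3a 0.0816, of Dsc1 -0.26 and of Vim -0.71. Under the other alternatives the fitted ratios of the 5 genes kept their sign. Leaving out 1 array at a time, they ran from 1.09 to 1.46 for Krt1, -1.18 to -0.79 for Sprr1b, 0.60 to 0.78 for Serpinb3a, 0.06 to 0.55 for Dsc1 and -0.38 to -0.14 for Pkp3. The dye part of Krt1 was -0.79 in the main setting and ran from -1.23 to -0.56 without 1 array. It was -1.71 with scaling and -1.64 with quantile normalization, neither past the threshold (limma, adjusted p = 0.0514 and 0.0613). The dye part of Sprr1b ran from -0.64 to 0.19 without 1 array, was 0.24 with scaling and 0.13 with quantile normalization, and that of Dsc1 ran from -0.85 to 0.13. Krt1 and Sprr1b gave no value where all 8 arrays were needed.

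Of the listed genes, 3 were higher and 8 lower past the threshold. Without 1 array, 2 to 3 were higher and 2 to 10 lower. The counts were 7 and 14 with quantile normalization, 13 lower with scaling, 5 lower with values on all 8 arrays, 1 and 5 with no dye term, 0 lower read as Cy5 over Cy3 (22 at an unadjusted p below 0.05 in limma), and 0 and 0 on arrays 4 to 8 alone (12 and 17 unadjusted). Over all genes 25 were higher and 106 lower. Without 1 array these were 6 to 21 and 47 to 112. They were 43 and 163 with scaling, 128 and 222 with quantile normalization, 12 higher with 2 arrays per orientation, 55 lower with values on all 8 arrays, 5 and 59 with no dye term, 62 and 4 read as Cy5 over Cy3, and 0 and 8 on arrays 4 to 8 alone (289 and 263 unadjusted). The cause of these changes was not tested beyond the smaller number of genes or arrays in some of them. The medians of all genes stayed within 0.1 of that of the main setting except under the reading as Cy5 over Cy3 (-0.06 against 0.05). Each ratio already sets mutant against wild type RNA within an array. No paired analysis was possible because the labels tie no array to an animal, so animals could not be entered as a block.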
